A study of Mus musculus with 6 samples.

Results

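Tight and adherens junction genes were followed across the cell types and genotype groups of a single-cell RNA study of adult mouse brain vessels and neural stem cell niche. The 9 genes, given by their symbols among 32285 features, were the tight junction strand genes Cldn5 and Ocln, the scaffold gene Tjp1, the immunoglobulin-type adhesion genes F11r, Jam2 and Esam, the cingulin-like gene Cgnl1, and the cadherin genes Cdh5 and Cdh2. Levels are counts of unique molecular identifiers (UMIs), scaled to CPM (UMIs of a gene per 1000000 UMIs) over all cells of a class in a library. On mm10, 8 of the genes lie at chr16:18776847-18778262 (Cldn5), chr13:100496507-100552718 (Ocln), chr1:171437535-171464603 (F11r), chr16:84774123-84825928 (Jam2), chr9:37528078-37538319 (Esam), chr8:104101625-104144511 (Cdh5), chr7:65296165-65527781 (Tjp1) and chr9:71626509-71771602 (Cgnl1).

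Cells from cortex and subventricular zone of mice aged 8 to 12 weeks were sorted, per the labels, into CD45-negative fractions of CD31-positive endothelial cells without Glast and Glast-positive neural stem or progenitor cells without CD31. The 6 libraries form 3 groups of 2, labelled ECiKO, GlastiKO and control. Control mice carry floxed alleles of the connexin 43 gene Gja1 on both chromosomes (Cx43flox/flox), and the other labels (Cx43ECiKO and Cx43GlastiKO) name an inducible knockout directed at endothelial cells or at Glast-expressing cells. The driver alleles, the induction and the number of mice per library are not given in the sources used here, the titles of the ECiKO libraries carry the word Vecad, a common name of the Cdh5 product, and the labels call the libraries of a group biological replicates.

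Tight junctions seal the space between neighbouring cells and are the basis of the blood-brain barrier. Claudins and occludin span the membrane and are tied by the zonula occludens scaffolds, Tjp1 among them, to actin, while cadherins hold adherens junctions together through catenins. Tjp1 also binds the tail of connexin 43, the protein of the targeted gene, and brain endothelium is known for claudin-5 and VE-cadherin, whereas neural and mural cells use N-cadherin.

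Promoter windows from RefSeq (GRCm38.p6), 250 bases before to 50 after the annotated start, were taken for 5 of the 9 genes. Of these, 4 are printed to set genes with almost no UMIs in astroglial- and oligodendrocyte-like cells (Cldn5, F11r and Cgnl1) beside Tjp1, which these glia also carried. Capitals mark the GC box (GGGCGG) and the CCAAT box (CCAAT), searched on both strands, with overlapping matches counted separately. The windows are chr16:18776597-18776896 (plus strand) for Cldn5, chr1:171437311-171437610 (plus strand) for F11r, chr9:71771553-71771852 (minus strand) for Cgnl1 and chr7:65371195-65371494 (minus strand) for Tjp1. Those of Cldn5, F11r and Cgnl1 cover the outer start of the gene positions given above. The Tjp1 window lies inside its gene, at an inner annotated start and away from the outer start at 65527781.
Cldn5: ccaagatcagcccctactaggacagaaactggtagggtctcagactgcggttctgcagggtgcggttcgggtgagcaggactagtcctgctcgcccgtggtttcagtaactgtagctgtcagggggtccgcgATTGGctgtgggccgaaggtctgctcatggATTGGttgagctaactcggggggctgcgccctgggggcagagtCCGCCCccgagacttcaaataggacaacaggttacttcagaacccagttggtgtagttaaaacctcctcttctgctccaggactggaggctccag
F11r: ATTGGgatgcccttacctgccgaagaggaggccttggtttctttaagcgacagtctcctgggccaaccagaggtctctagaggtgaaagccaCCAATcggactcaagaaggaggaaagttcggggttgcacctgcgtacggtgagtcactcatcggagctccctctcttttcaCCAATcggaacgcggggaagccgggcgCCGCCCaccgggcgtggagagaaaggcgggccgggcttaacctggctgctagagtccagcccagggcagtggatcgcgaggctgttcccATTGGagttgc
Cgnl1: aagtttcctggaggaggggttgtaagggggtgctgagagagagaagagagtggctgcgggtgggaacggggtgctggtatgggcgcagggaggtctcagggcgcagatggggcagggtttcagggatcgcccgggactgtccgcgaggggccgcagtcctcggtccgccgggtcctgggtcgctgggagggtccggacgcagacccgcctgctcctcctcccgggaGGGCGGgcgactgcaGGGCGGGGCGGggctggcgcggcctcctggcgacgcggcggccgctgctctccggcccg
Tjp1: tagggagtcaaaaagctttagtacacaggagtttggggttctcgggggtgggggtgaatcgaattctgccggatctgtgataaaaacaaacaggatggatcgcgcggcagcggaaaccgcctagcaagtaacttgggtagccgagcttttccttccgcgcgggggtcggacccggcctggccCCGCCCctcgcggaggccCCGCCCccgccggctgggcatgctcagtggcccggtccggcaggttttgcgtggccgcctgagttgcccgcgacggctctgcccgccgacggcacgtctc
The Cldn5 window held 2 CCAAT boxes and 1 GC box, and the F11r window 4 and 1. Cgnl1 held 3 GC boxes and Tjp1 held 2, with no CCAAT box in either window. Of 32851 promoter windows of this length, 35.7% held a GC box and 37.4% a CCAAT box, so such matches are common, and they describe these windows without marking a site. GC content was 58.3% for Cldn5, 60.3% for F11r, 73.3% for Cgnl1 and 65.3% for Tjp1, against a median of 52.7% over all windows.

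The libraries held between 1735247 and 14859187 UMIs, and 6274 of 7433 barcodes were used after quality filters. The libraries numbered 1 were 91.0% to 97.5% endothelial-like by marker genes that include no junction gene. Those numbered 2 held 21 endothelial-like cells in ECiKO, 66 in GlastiKO and 46 in control, beside 147, 409 and 406 astroglial-like and 1878, 598 and 446 oligodendrocyte-like cells, although oligodendrocytes are not among the sorted cells named in the labels. ECiKO replicate 2 stood apart with a median of 786 UMIs per cell, against 2792 to 10792 in the others, and 14.1% of its cells could not be placed in a class. All 10 endothelial gate markers were detected in each endothelial-like sum, all 8 astroglial and all 8 oligodendrocyte markers in each sum of those classes, and 1 barcode was shared between libraries. Endothelial-like Gja1 levels were 222 and 209 CPM under the ECiKO label, 136 and 131 CPM under the GlastiKO label, and 90.2 and 109 CPM in control, so it was not lower under the ECiKO label. In astroglial-like cells it was at 2537 CPM in GlastiKO replicate 2 against 2560 CPM in control replicate 2. Whether the 3′ reads fall in the deleted part of the gene is not given in the sources used here, so group names below are those of the labels and do not stand for a measured loss of Gja1.

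Endothelial-like cells carried 8 of the 9 genes at higher levels than astroglial-like cells of the same libraries, and N-cadherin (Cdh2) at a lower level. The test was edgeR's quasi-likelihood F test with the library as a block, over the 3 libraries numbered 2, where each class had at least 20 cells, and a gene was called at a Benjamini-Hochberg adjusted p under 0.05. It called 9 of 9 members, 8 higher and 1 lower, where 40.7% of 11566 genes were called, 15.4% higher and 25.3% lower. Against oligodendrocyte-like cells of the same libraries, in the same fit, it again called 8 higher and 1 lower, where 46.1% of genes were called, 16.5% higher and 29.6% lower. The 2 comparisons share their endothelial-like cells and are therefore not independent. Between astroglial-like and oligodendrocyte-like cells 4 of 9 members were called, all higher (Ocln, Jam2, Cdh2 and Cgnl1), where 72.1% of genes were called, 36.9% higher and 35.2% lower. Read against the shares of this last comparison, its count does not set the junction genes apart.

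**Figure D1:**
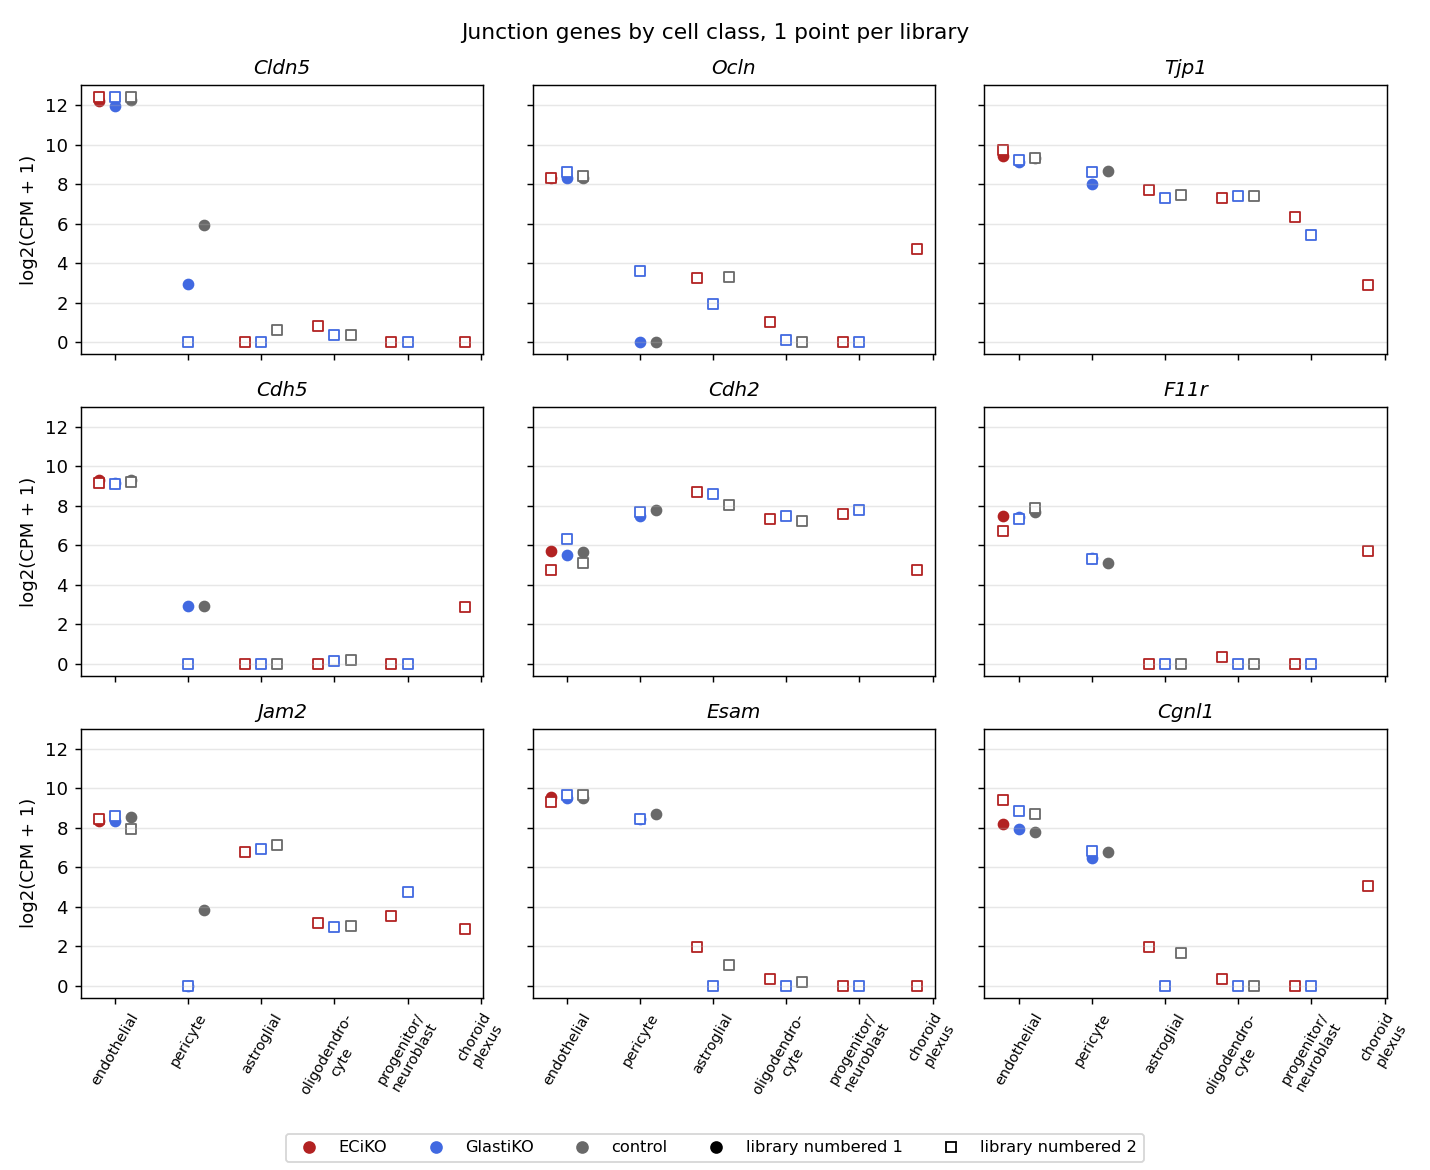
Level of each junction gene, as log2(CPM + 1) on the vertical axis, in each cell class on the horizontal axis, with 1 point per library that had at least 20 cells of the class. Red is ECiKO, blue GlastiKO and grey control, circles are libraries numbered 1 and squares those numbered 2. Cldn5 and Cdh5 lie far above every other class in endothelial-like cells, whereas Cdh2 is lower there than in pericyte-like and glial classes.

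Claudin-5 (Cldn5), the main claudin of brain endothelium, was at 5389 CPM in ECiKO, 5348 CPM in GlastiKO and 5353 CPM in control endothelial-like cells of the libraries numbered 2. Astroglial-like cells of these libraries held 1 Cldn5 UMI in all, and oligodendrocyte-like cells 8, in sums of 4310407 and 21408744 UMIs. The classes were therefore fully apart in every library. The pooled endothelial to astroglial ratio was 23078, with an exact 95% interval of 4137 to 911986, and the ratio to oligodendrocyte-like cells was 14328 (7257 to 33233). These and all later intervals cover counting error only.

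Occludin (Ocln), a strand protein that shares tight junctions with claudins, was at 314, 392 and 343 CPM in endothelial-like cells of ECiKO, GlastiKO and control replicate 2, and at 8.53, 2.82 and 8.73 CPM in their astroglial-like cells. The log2 fold change was 5.57 ± 0.36 (SE, which like all SEs here rests on a spread pooled over genes; edgeR's quasi-likelihood test, Benjamini-Hochberg adjusted p = 2.29e-26). Astroglial-like cells thus held 25 Ocln UMIs beside 1 Cldn5 UMI, where endothelial-like cells held 137 beside 1992. The endothelial gate markers summed to between 2.73 and 8.53 CPM in the astroglial-like cells, against 23455 to 24467 CPM in the endothelial-like cells of these libraries, and their part in the Ocln level was not tested. Ocln was also higher in astroglial-like than in oligodendrocyte-like cells (25 against 5 UMIs; log2 fold change 4.11 ± 0.67, edgeR quasi-likelihood adjusted p = 4.49e-08 after Benjamini-Hochberg). The change was 2.92 without control replicate 2 and 5.67 without ECiKO replicate 2, called in both.

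Among the immunoglobulin-type adhesion genes, F11r and Esam had almost no UMIs in astroglial- and oligodendrocyte-like cells, whereas Jam2 was shared with astroglia. F11r encodes junctional adhesion molecule A, and its endothelial-like levels were 105, 159 and 234 CPM in ECiKO, GlastiKO and control replicate 2, with 0 UMIs in the astroglial-like cells of all 3 libraries. Set against a floor of 3 counts over the 3 libraries together, F11r was at least 255-fold higher in endothelial-like cells. Esam, the endothelial cell-selective adhesion molecule, gave 293 endothelial UMIs against 3 astroglial UMIs, a ratio of 1132 (383 to 5518).

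Jam2, which encodes junctional adhesion molecule B, was at 340, 378 and 243 CPM in endothelial-like cells of ECiKO, GlastiKO and control replicate 2, and at 108, 120 and 140 CPM in their astroglial-like cells. Every endothelial value lay above every astroglial value, by a log2 fold change of 1.00 ± 0.21 (edgeR quasi-likelihood, Benjamini-Hochberg adjusted p = 4.16e-05). Without GlastiKO replicate 2 the change was 0.72 and the call was lost (edgeR, adjusted p = 0.0804). Oligodendrocyte-like cells held 8.20, 6.75 and 7.03 CPM of Jam2 in the same libraries, so this gene also separated the glial classes, with a log2 fold change of 3.83 ± 0.19 between astroglial-like and oligodendrocyte-like cells (edgeR quasi-likelihood, Benjamini-Hochberg adjusted p = 4.35e-35).

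Cgnl1 encodes cingulin-like 1 (paracingulin), a cytoplasmic protein of tight and adherens junctions. Its endothelial-like sum over the 3 libraries numbered 2 was 174 UMIs, against 5 in astroglial-like and 1 in oligodendrocyte-like cells, a ratio of 403 (169 to 1257) to astroglia. The difference between the glial classes rested on these few UMIs: the log2 fold change of 3.53 ± 1.17 between astroglial-like and oligodendrocyte-like cells (edgeR quasi-likelihood, Benjamini-Hochberg adjusted p = 0.00531) was 1.76 without control replicate 2 (adjusted p = 0.412) and turned to -1.69 when the classes were taken from clusters.

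Cadherins divided the classes in opposite directions. VE-cadherin (Cdh5), the endothelial adherens junction cadherin, was at 576, 555 and 594 CPM in endothelial-like cells of ECiKO, GlastiKO and control replicate 2, with 0 UMIs in all astroglial-like cells. It was at least 819-fold higher in endothelial-like cells when set against 3 counts over the 3 libraries. N-cadherin (Cdh2) was at 26.2, 79.3 and 33.5 CPM in the same endothelial-like cells, resting on 1, 17 and 4 UMIs, whereas astroglial-like cells held 421, 383 and 260 CPM. No endothelial value reached an astroglial one, and the log2 fold change was -2.94 ± 0.30 (edgeR quasi-likelihood, Benjamini-Hochberg adjusted p = 9.40e-15). Against oligodendrocyte-like cells, which held 160, 178 and 151 CPM, the Cdh2 change was -2.16 ± 0.31 (edgeR quasi-likelihood, Benjamini-Hochberg adjusted p = 4.37e-09).

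The share of Cdh5 among the UMIs of both cadherins describes this balance without regard to depth. It was 92.6% and 95.7% in endothelial-like cells of ECiKO, 92.7% and 87.5% in GlastiKO, and 92.7% and 94.7% in control. In astroglial-like cells it was 0 of 148 UMIs in ECiKO, 0 of 813 in GlastiKO and 0 of 476 in control, with exact 95% upper limits of 2.46%, 0.453% and 0.772%; 3 counts, the floor used here, would be 2.03%, 0.369% and 0.630%. The endothelial shares thus did not overlap those of glia in any library. Capture may differ between genes, so the share compares classes and does not rank the cadherins.

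The scaffold gene Tjp1 was among the least restricted of the set. Tjp1 (ZO-1) was at 837, 597 and 644 CPM in endothelial-like cells of ECiKO, GlastiKO and control replicate 2, at 208, 156 and 173 CPM in astroglial-like cells, and at 157, 170 and 170 CPM in oligodendrocyte-like cells. All endothelial values lay above all glial values, and the log2 fold changes were 1.53 ± 0.19 against astroglial-like cells and 1.30 ± 0.18 against oligodendrocyte-like cells (edgeR quasi-likelihood, Benjamini-Hochberg adjusted p = 3.15e-11 and 9.59e-10). Between the glial classes Tjp1 did not pass (log2 fold change -0.23 ± 0.16, edgeR quasi-likelihood, Benjamini-Hochberg adjusted p = 0.186), and it moved to 0.0058 under DESeq2. Without ECiKO replicate 2 it was called lower (-0.35, edgeR adjusted p = 0.0307), and without GlastiKO replicate 2 it was at -0.034. Tjp3 (ZO-3) had 0 UMIs in every endothelial-like sum and 1 UMI in astroglial-like cells, and was not tested.

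**Figure D2:**
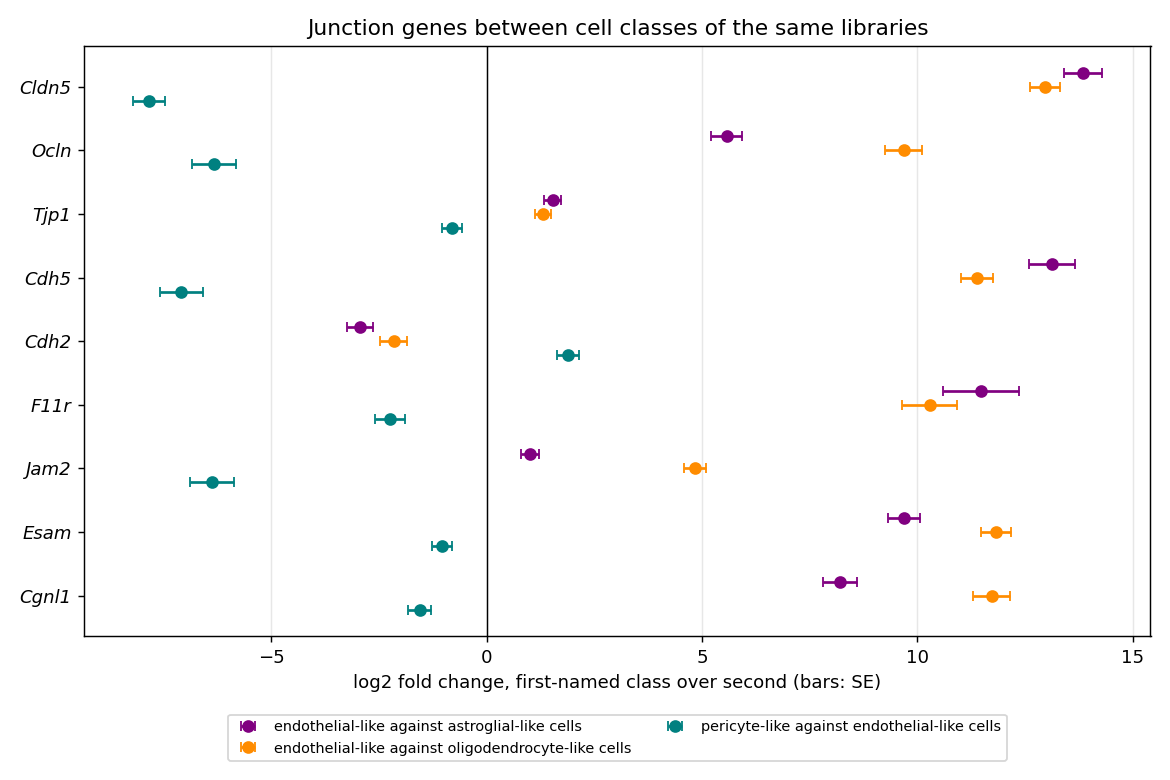
Log2 fold change (horizontal axis) of each junction gene (vertical axis) between cell classes of the same libraries, with SEs as bars. Purple is endothelial-like over astroglial-like, orange endothelial-like over oligodendrocyte-like and teal pericyte-like over endothelial-like cells. Cdh2 is the member that lies left of 0 in purple and orange and right of 0 in teal, and the fitted purple values of Cdh5 and F11r, which had 0 UMIs in astroglial-like cells, are not a measure of size.

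Pericyte-like cells share the basement membrane of capillaries with endothelium. They held 8 of the 9 genes at lower levels than endothelial-like cells, and Cdh2 at a higher level. They could be compared with endothelial-like cells in 3 libraries (GlastiKO replicates 1 and 2 and control replicate 1), where 9 of 9 members were called, 1 higher and 8 lower, and 58.5% of 4122 genes were called, 27% higher and 31.6% lower. Esam was at 346, 347 and 415 CPM in pericyte-like cells of these libraries, against 736, 803 and 727 CPM in endothelial-like cells, a log2 fold change of -1.03 ± 0.23 (edgeR quasi-likelihood, Benjamini-Hochberg adjusted p = 0.000102). Cgnl1 was at 86.5, 110 and 107 CPM in pericyte-like cells, against 241, 457 and 223 CPM in endothelial-like cells. F11r was at 39.9, 38.5 and 33.5 CPM in pericyte-like cells, on 6, 7 and 5 UMIs, against 173, 159 and 206 CPM. These 3 genes were lower in pericyte-like cells in each library, but were detected in all of them.

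Cldn5, Ocln, Cdh5 and Jam2 were between 0 and 60.3 CPM in pericyte-like cells. Cldn5 was at 6.66, 0 and 60.3 CPM in the pericyte-like cells of GlastiKO replicates 1 and 2 and control replicate 1, on 1, 0 and 9 UMIs. Endothelial-like cells of these libraries held 3982, 5348 and 4927 CPM. Endothelial gate markers summed to 260, 314 and 589 CPM in the same pericyte-like sums, against 21614, 23455 and 22347 CPM in the endothelial-like sums, and their part in the levels was not tested. Cdh2 was higher in pericyte-like cells, at 180, 204 and 221 CPM against 45.2, 79.3 and 50.7 CPM in endothelial-like cells (log2 fold change 1.89 ± 0.26, edgeR quasi-likelihood, Benjamini-Hochberg adjusted p = 1.46e-09).

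Tjp1 in pericyte-like cells was at 253, 396 and 402 CPM, against 563, 597 and 649 CPM in endothelial-like cells. Its log2 fold change was -0.80 ± 0.23 (edgeR quasi-likelihood, Benjamini-Hochberg adjusted p = 0.00237), and the call was lost under DESeq2 (-0.76, adjusted p = 0.0666) and without GlastiKO replicate 1 (-0.65, edgeR adjusted p = 0.0728).

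In the smaller classes the levels are given without a test. Progenitor- and neuroblast-like cells of ECiKO and GlastiKO replicate 2 held 189 and 219 CPM of Cdh2 and 78.9 and 41.3 CPM of Tjp1, with 0 UMIs of Cldn5, Ocln, Cdh5, F11r, Esam and Cgnl1. Choroid plexus-like cells of ECiKO replicate 2, an epithelium with tight junctions of its own, held 51.2 CPM of F11r, 32.0 CPM of Cgnl1, 25.6 CPM of Ocln and 12.8 CPM of Tjp3, with 0 UMIs of Cldn5 and Esam.

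Other junction genes from 6 lists showed which partners each class held. Of 18 other claudins, 6 were tested between endothelial-like and astroglial-like cells, 1 higher and 2 lower, with a list median log2 fold change of -0.82 against -0.35 over all genes. Cldn10, a claudin of astrocytes and epithelia, was among the lower ones, with 2 UMIs in endothelial-like against 3650 in astroglial-like cells (CPM ratio 0.00635, 0.000769 to 0.0229). Cldn11, the claudin of myelin, was lower than in oligodendrocyte-like cells, with 7 against 65802 UMIs (ratio 0.00612, 0.00246 to 0.0126). The list of 15 other tight junction membrane proteins also holds Mfsd2a, a marker of the capillary zone. Among 7 tested of these 15, 2 were higher and 3 lower against astroglial-like cells, with a median of 0.39. Lsr, an angulin of tricellular junctions, was higher by 7.81 ± 0.46 on the log2 scale (edgeR quasi-likelihood, Benjamini-Hochberg adjusted p = 6.94e-29). Jam3, which encodes junctional adhesion molecule C, was lower, with 2 against 167 UMIs (ratio 0.139, 0.0167 to 0.509). Jam3 was instead higher in pericyte-like than in endothelial-like cells, with a log2 fold change of 3.75 ± 0.34 (edgeR quasi-likelihood, Benjamini-Hochberg adjusted p = 7.00e-16).

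Of 25 scaffold and polarity genes, 20 were tested against astroglial-like cells, with 5 higher and 5 lower and a median of -0.31, beside -0.35 over all genes. Afdn, whose product afadin links nectins to actin, had an endothelial to astroglial log2 fold change of 1.90 ± 0.20 (edgeR quasi-likelihood, Benjamini-Hochberg adjusted p = 3.62e-14). Magi2, a membrane-associated guanylate kinase, was lower, with 2 endothelial against 459 astroglial UMIs (ratio 0.0505, 0.00610 to 0.183). Among 15 other cadherins, 9 were tested and 7 were lower in endothelium than in astroglia, with none higher and a median of -3.99. Cdh10 had 0 UMIs in endothelial-like cells and was at least 25.1-fold lower against 3 counts over the 3 libraries, and the protocadherin Pcdh17 stood at a log2 fold change of -3.99 ± 0.39. In pericyte-like cells Cdh11 exceeded its endothelial-like level by 5.49 ± 0.70 on the log2 scale (edgeR quasi-likelihood, Benjamini-Hochberg adjusted p = 1.81e-10).

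Catenins and plaque genes had 5 higher and 5 lower than in astroglial-like cells among 15 tested of 17, with a median of -0.80 against -0.35 over all genes. Each list count against astroglial-like cells stands beside 15.4% of all genes called higher and 25.3% lower. Ctnnb1 (beta-catenin) and Jup (plakoglobin), which bind cadherin tails, were higher in endothelial-like cells at log2 fold changes of 2.42 ± 0.20 and 1.82 ± 0.31 (edgeR quasi-likelihood, Benjamini-Hochberg adjusted p = 2.94e-19 and 6.71e-07). Ctnnd2 (delta-catenin, a neural catenin) had 0 UMIs in endothelial-like cells and was at least 34.7-fold lower than in astroglial-like cells. Of 16 nectins and contact receptors 13 were tested, 7 higher and 3 lower, with a median of 2.16. Ptprb, the phosphatase VE-PTP that associates with VE-cadherin, was higher with 1045 endothelial UMIs against 1 astroglial UMI (ratio 12107, 2168 to 478641). Pecam1, which encodes the sorting antigen CD31, was higher by 8.70 ± 0.31 on the log2 scale, while Gja1 stood at -4.59 ± 0.28.

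Turning to the groups, none of the 9 junction genes passed the test between the libraries labelled ECiKO or GlastiKO and control in endothelial-like cells. The edgeR quasi-likelihood test on the 6 endothelial-like sums called 0 of 9 members for ECiKO, where 23 of 8502 genes (0.271%) were called at a Benjamini-Hochberg adjusted p under 0.05, 0.0235% higher and 0.247% lower. It called 0 of 9 for GlastiKO, where 26 genes (0.306%) were called, 0.106% higher and 0.2% lower. No member had an unadjusted p under 0.05 in either comparison, against 117 and 152 of all genes, and DESeq2 called 0 of 9 in both, with 3 and 2 genes in all. With so few genes called over the whole table, 0 of 9 is not a result about the junction genes. Both comparisons use the same control libraries. In sums over cells of a class, fewer cells in a state and less RNA per cell cannot be told apart. Erythroid markers in the endothelial-like sums, which are no part of the gate, reached 64.5 and 0 CPM in ECiKO, 15046 and 233 CPM in GlastiKO and 5227 and 8.36 CPM in control, and their part in the values was not tested.

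**Figure D3:**
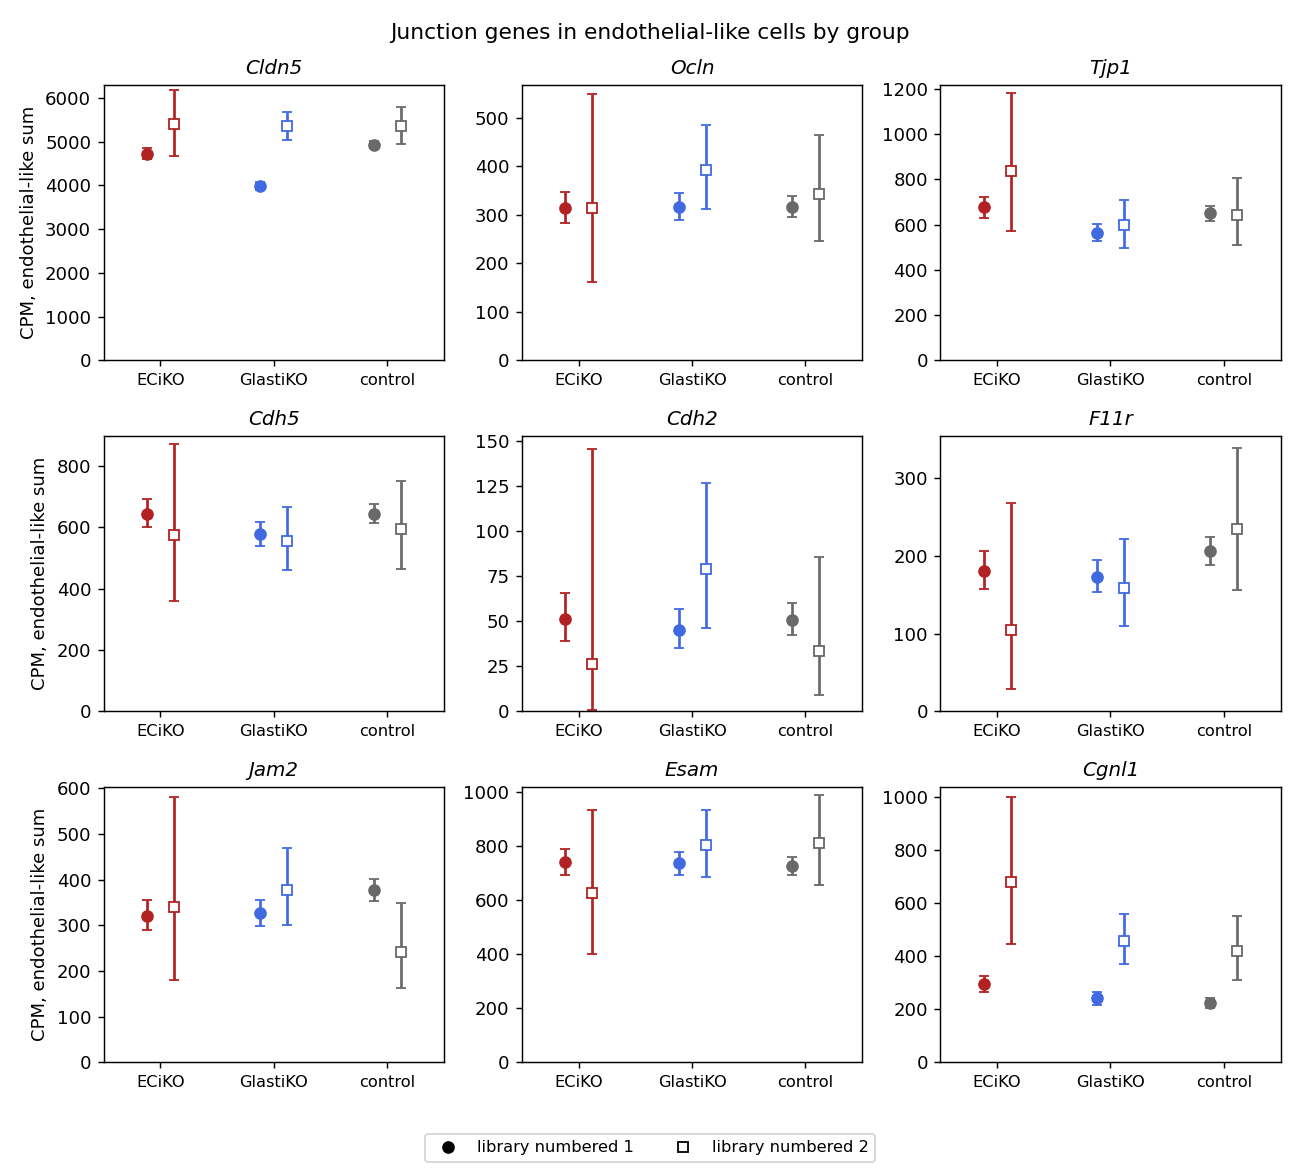
Level of each junction gene in endothelial-like cells (CPM, vertical axes starting at 0) in ECiKO, GlastiKO and control libraries, with filled circles for libraries numbered 1, open squares for those numbered 2 and bars for exact 95% Poisson intervals. F11r is lower in the 4 knockout-labelled libraries than in both control libraries, an order whose share over all genes was not counted. Cgnl1 is higher in the library numbered 2 of each group.

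Cldn5 levels were 4718 and 5389 CPM in ECiKO, 3982 and 5348 CPM in GlastiKO, and 4927 and 5353 CPM in control, for replicates 1 and 2 of each. The groups overlapped, and the log2 fold changes were -0.10 ± 0.28 for ECiKO and -0.08 ± 0.28 for GlastiKO (edgeR quasi-likelihood, Benjamini-Hochberg adjusted p = 0.9998 and 0.99996, as for every other member). Cdh5 was the steadiest member, at 644 and 576 CPM in ECiKO, 577 and 555 CPM in GlastiKO, and 644 and 594 CPM in control. Its highest endothelial-like value was 1.16 times its lowest. Ocln, at 314 and 314 CPM in ECiKO, 317 and 392 CPM in GlastiKO and 316 and 343 CPM in control, and Esam, at 740 and 628 CPM in ECiKO, 736 and 803 CPM in GlastiKO and 727 and 811 CPM in control, differed by 1.25 and 1.29 times at most over the 6 libraries.

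F11r was lower in each of the 4 knockout-labelled libraries than in both control libraries, an order whose share over all genes was not counted. It was at 180 and 105 CPM in ECiKO, 173 and 159 CPM in GlastiKO, and 206 and 234 CPM in control, on 218, 4, 272, 34, 520 and 28 UMIs in that order. Within the libraries numbered 1 the ratio to control was 0.876 (0.744 to 1.03) for ECiKO and 0.842 (0.724 to 0.977) for GlastiKO, and within those numbered 2 it was 0.447 (0.114 to 1.28) and 0.677 (0.399 to 1.16). The fitted log2 fold changes of -0.32 ± 0.29 and -0.28 ± 0.27 did not pass (edgeR quasi-likelihood, unadjusted p = 0.276 and 0.308). The ECiKO change was -1.26 without ECiKO replicate 1, which leaves the 4 UMIs of replicate 2, and -0.17 without ECiKO replicate 2.

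Jam2 was at 321 and 340 CPM in ECiKO, 326 and 378 CPM in GlastiKO, and 376 and 243 CPM in control, with log2 fold changes of -0.02 ± 0.30 and 0.15 ± 0.28. Cdh2 was at 51.3 and 26.2 CPM in ECiKO, 45.2 and 79.3 CPM in GlastiKO, and 50.7 and 33.5 CPM in control, with changes of 0.06 ± 0.40 and 0.24 ± 0.37. Both overlapped between groups. The SEs of 0.27 to 0.40 over the members limit the size of change that these 6 libraries could show.

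The connexin 43-binding scaffold gene Tjp1 was at 675 and 837 CPM in ECiKO, 563 and 597 CPM in GlastiKO, and 649 and 644 CPM in control. Both ECiKO values lay above and both GlastiKO values below control, with log2 fold changes of 0.13 ± 0.31 and -0.09 ± 0.30, within 1 SE of 0. How many of all genes show such an order was not counted. Tjp3 stayed at 0 UMIs. Gja1 itself was higher in ECiKO by 1.22 ± 0.30 (edgeR quasi-likelihood test, Benjamini-Hochberg adjusted p = 0.0295), a call that DESeq2 did not make (1.16, adjusted p = 0.99998) and that goes against the label. The call was also lost without the low-count filter (1.21, edgeR adjusted p = 0.0583), without ECiKO replicate 1 (0.91, adjusted p = 0.718), without control replicate 1 (1.10, adjusted p = 0.999) and without control replicate 2 (1.24, adjusted p = 0.171). With a replicate block, which was not the main fit, the ECiKO call was kept (1.25, edgeR quasi-likelihood, Benjamini-Hochberg adjusted p = 0.000802). For GlastiKO the Gja1 change was 0.58 ± 0.29 (edgeR adjusted p = 0.99996).

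Of the other junction genes tested in endothelial-like cells, which were 3 claudins, 5 tight junction membrane genes, 16 scaffold and polarity genes, 3 cadherins, 9 catenin and plaque genes and 12 nectins and contact receptors, Gja1 in ECiKO was the 1 called. The lowest unadjusted p among the rest belonged to Pcdh17, a protocadherin, at a log2 fold change of -2.27 ± 0.64 in ECiKO and -1.02 ± 0.50 in GlastiKO, which did not pass (edgeR quasi-likelihood, Benjamini-Hochberg adjusted p = 0.152 and 0.99996). Endothelial-like cells of the libraries numbered 2 held 7 Pcdh17 UMIs together (18.8 CPM).

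In the glial classes each group had 1 library with enough cells, so the values are given with counting intervals and no test. Cdh2 in astroglial-like cells was at 421 CPM in ECiKO, 383 CPM in GlastiKO and 260 CPM in control. It was thus higher in both knockout-labelled libraries, by ratios of 1.62 (1.34 to 1.95) and 1.47 (1.31 to 1.65). Both ratios divide by the same control library, and how many of all genes show such an order was not counted. The clusters that make up the class differed between libraries. Counting clusters with at least 20 such cells in a library, cluster 10 came from ECiKO alone, cluster 15 and cluster 16 from GlastiKO and control, and cluster 21 from ECiKO and control. Within cluster 7, the deepest shared by all 3 libraries, the Cdh2 level was 573 CPM in ECiKO, 462 CPM in GlastiKO and 376 CPM in control, with ratios of 1.52 (1.14 to 2.02) and 1.23 (1.02 to 1.49). Within the other shared clusters the GlastiKO ratio lay between 1.14 and 1.55 and the ECiKO ratio between 1.10 and 2.43, with intervals that included 1 in all but cluster 11 of ECiKO.

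Tjp1 and Jam2 moved less in astroglial-like cells. The Tjp1 ratio to control was 1.20 (0.915 to 1.55) for ECiKO and 0.898 (0.768 to 1.05) for GlastiKO, and the Jam2 ratio 0.774 (0.535 to 1.09) and 0.859 (0.720 to 1.03). In oligodendrocyte-like cells the Tjp1 ratio was 0.921 (0.833 to 1.02) and 1.00 (0.929 to 1.08), and the Cdh2 ratio 1.06 (0.954 to 1.17) and 1.17 (1.09 to 1.27). The Cdh2 ratio of astroglial-like cells was therefore larger than that of oligodendrocyte-like cells from the same libraries, a difference that 1 library per group cannot test.

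Cgnl1 levels were higher in the library numbered 2 of each group. In endothelial-like cells it was at 680 CPM in replicate 2 against 293 CPM in replicate 1 of ECiKO, at 457 against 241 CPM in GlastiKO, and at 418 against 223 CPM in control. Every level in a library numbered 2 lay above every level in those numbered 1. A fit of the libraries numbered 2 against those numbered 1, with the group kept in, was added because these levels had been seen, so its fold change of 0.82 ± 0.20 on the log2 scale restates them and its p is no support. It called 1 of 9 members, where 23 of 8502 genes (0.271%) were called, 0.0706% higher and 0.2% lower, and nothing is read from that count. Astroglial gate markers in these sums moved with the number, at 26.2 CPM in replicate 2 against 7.44 CPM in replicate 1 of ECiKO, 173 against 33.1 CPM in GlastiKO and 100.4 against 17.8 CPM in control. Astroglial-like cells held at most 2.84 CPM of Cgnl1, and the part of RNA from other cells in the difference was not tested. The number cannot be told apart from the mixture of cells sorted into a library, and the ECiKO to control change of Cgnl1 (0.39 ± 0.32, edgeR quasi-likelihood, unadjusted p = 0.227) did not pass.

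A small cluster of endothelial-like cells led by Plvap, the gene of the diaphragm of fenestrated vessels, carried another junction profile. It held 34 cells, of which 31 came from control replicate 1, 1 from control replicate 2 and 2 from GlastiKO replicate 1, so the values describe the 31 cells of 1 library and no test was made. Cldn5 was at 23.4 CPM in these cells, against 5283 CPM in the other endothelial-like cells of the library, a ratio of 0.00444 (0.00121 to 0.0114). Ocln was at 0 UMIs against 339 CPM, at least 19.3-fold lower against a floor of 3 counts in these cells. The strand genes of the tight junction were thus all but missing from cells that passed the endothelial gate.

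Scaffold genes were lower there too, with 29.3 CPM of Cgnl1 against 237 CPM (ratio 0.124, 0.040 to 0.290) and 264 CPM of Tjp1 against 677 CPM (ratio 0.390, 0.283 to 0.524). Cdh5 was higher, at 1054 CPM against 614 CPM (ratio 1.72, 1.46 to 2.01), and the intervals for F11r (0.935, 0.637 to 1.33) and Esam (0.871, 0.711 to 1.06) included 1. Those for Jam2 (0.654, 0.470 to 0.888) and Cdh2 (0.219, 0.0262 to 0.808, on 2 UMIs) lay below 1. Gja1 was also higher in these cells, at 387 CPM against 68.8 CPM (ratio 5.62, 4.16 to 7.53). Since nearly all of them were control cells, the group comparisons were refitted without the cluster. Members called stayed at 0 of 9 in both comparisons, and genes called fell to 5 in ECiKO and 7 in GlastiKO. The Gja1 change in ECiKO was 1.63 (edgeR quasi-likelihood, Benjamini-Hochberg adjusted p = 0.000747). The 31 cells held 66 of the 228 Gja1 UMIs of control replicate 1, so leaving them out lowers the control level by itself. This refit was added after the cluster had been seen, and its smaller p is no added support. The Cldn5 changes without the cluster were -0.18 in both ECiKO and GlastiKO.

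**Figure D4:**
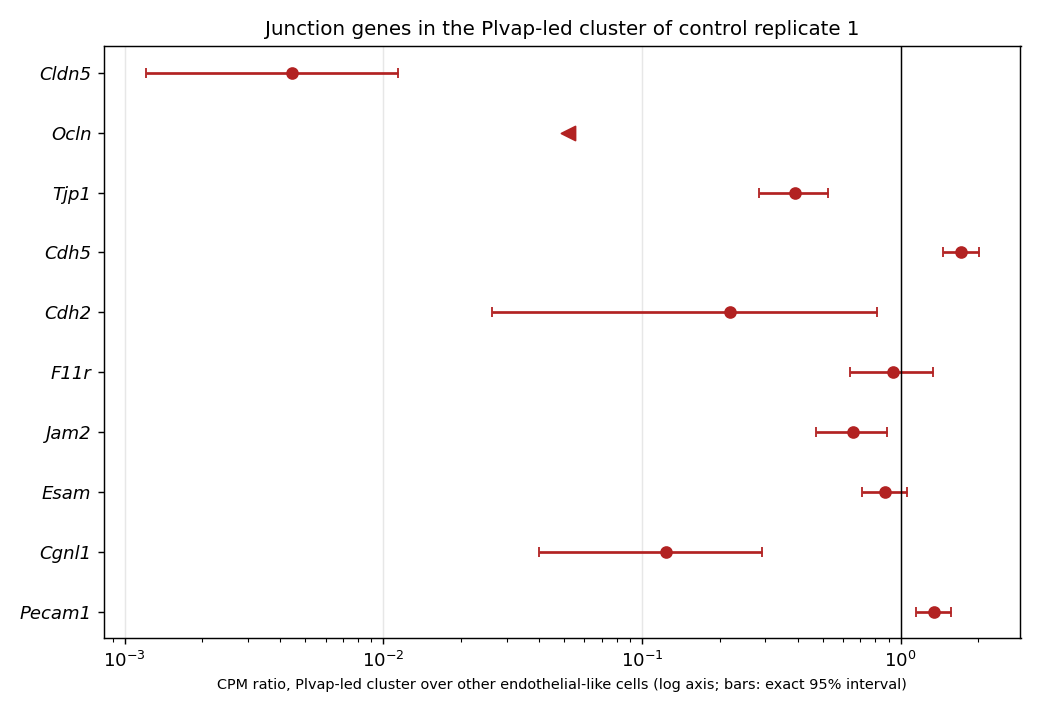
Ratio of CPM in the 31 cells of the Plvap-led cluster of control replicate 1 to the other endothelial-like cells of that library (horizontal log axis), for each junction gene and Pecam1, with exact 95% intervals. The triangle for Ocln, with 0 UMIs in the cluster, marks the bound from 3 counts. Cldn5 and Ocln lie furthest below 1, whereas Cdh5 lies above 1.

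Along the vessel tree, endothelial-like cells of the libraries numbered 1 were split by arterial and venous markers. The rule set in advance left under 20 arterial-range and venous-range cells in each library, so a looser one was chosen after the cells were counted (at least 3 UMIs of one marker list and more than of the other), without the Plvap-led cells. Cells with at most 1 UMI of each list served for comparison, which leaves 58 intermediate cells in ECiKO, 57 in GlastiKO and 98 in control apart, and the result is a description. Cldn5 was lower in arterial-range cells in 3 of 3 libraries, at 3986 CPM in ECiKO, 3447 CPM in GlastiKO and 4872 CPM in control, against 4792, 3776 and 5166 CPM in the comparison cells. Cdh5 was higher in arterial-range cells in 3 of 3, at 826, 644 and 704 CPM, against 569, 554 and 570 CPM. Cgnl1 was lower in them in 3 of 3, at 222, 199 and 186 CPM, against 326, 237 and 269 CPM. Esam and Cdh2 were also lower in them in 3 of 3, Cdh2 on 5, 8 and 6 UMIs. F11r was higher in them in 3 of 3, at 226, 178 and 204 CPM against 127, 157 and 183 CPM. In GlastiKO and control it was below the intermediate cells, which held 196 and 229 CPM. Ocln, Tjp1 and Jam2 were higher in arterial-range cells in 1 of 3. In venous-range cells Cldn5, Ocln, Tjp1, Cdh5, F11r and Esam were above the comparison cells in 3 of 3 libraries. This did not hold against the intermediate cells for every gene and library, since Cldn5 in ECiKO was at 4892 CPM in venous-range against 5220 CPM in intermediate cells, and Cdh5 at 586 against 675 CPM. Cdh2 and Jam2 were above the comparison cells in 2 of 3 libraries and Cgnl1 in 1 of 3. Some venous differences lay within counting error, such as Tjp1 in control at 702 against 701 CPM. The share of all genes with 3 of 3 libraries in 1 direction was not counted for either range. The rule favours cells with more UMIs, and its part in these differences was not tested.

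The genes most like each member across the 18 class sums, by Pearson correlation of log2(CPM + 10) over 7752 genes, are given as a description, since sums of a library share its depth and sums of a class its cell type. Cldn5 was closest to Abcb1a (r = 0.998), a barrier efflux pump and gate marker, followed by Robo4 (r = 0.998). Cdh5 was closest to the gate marker Adgrl4 (r = 0.998) and Esam to Foxf2 (r = 0.998), a transcription factor of brain pericytes and endothelium. Jam2 was closest to Ccdc85a (r = 0.981), and Cgnl1 to Slc22a8 (r = 0.984), an organic anion transporter of barrier endothelium. Ocln was closest to Paqr5 (r = 0.988) and F11r to Tinagl1 (r = 0.984). Tjp1 and Cdh2, detected in most classes, had the weakest nearest neighbours, Sptbn1 (r = 0.969) and Rftn2 (r = 0.943).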

How the data were processed

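The authors deposited 1 matrix of raw UMI counts per library, genes by barcodes and not normalized, from the 10x Chromium 3′ kit and the mm10 genome. Cell Ranger 5.0.0 is named in the labels' protocols, but Cell Ranger 2.1.1, beside Seurat 4, in the submitters' processing notes, and which of them made the matrices was not tested. Gene positions are those of GENCODE M21 on mm10.

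Cells with at least 300 genes and at most 20% mitochondrial UMIs were kept, and 49 of 6323 (0.775%) called as doublets by Scrublet in scanpy 1.11.5 were left out. A cell joined a class with at least 3 UMIs and 2 genes of its markers and 80% of its marker UMIs, and 418 of 6274 joined none, 352 of them in ECiKO replicate 2. Clusters (leidenalg 0.10.2) were computed without junction genes and used as an alternative and to find the Plvap-led cells. The class names end in "-like" because they rest on RNA.

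UMI counts were summed per library and class with at least 20 cells. They were tested with edgeR 4.0.16 in R 4.3.3 (filterByExpr, TMM scaling, quasi-likelihood F test, Benjamini-Hochberg over all genes at 0.05), with group as the only term between groups and with the library as a block between classes. The fits had 3 residual degrees of freedom between groups, 4 between the endothelial and glial classes, 2 for pericyte-like cells and 2 for the library numbers. DESeq2 1.42.0 was the alternative. The scripts were tested on simulated data. P-values measure the spread between these libraries, pooled over genes as for the SEs, and not a spread estimated from each gene alone. Each SE is the size of a log2 fold change over the root of its F.

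The named genes are the 9 members, Tjp3, Gja1 and, of each list, genes taken from the 3 per direction with the smallest adjusted p, or from the 2 with the smallest unadjusted p where none passed. Likeness names up to 3 genes per member. Members and lists were chosen with earlier results of these data known. Alternatives were a stricter gate, 500 genes per cell, Scrublet calls kept, cluster classes, RLE scaling, no low-count filter, no library block, a replicate block and leaving out each library.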

Additional observations from a re-analysis of the deposited data

How the results depend on the processing

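Between groups, 0 of 9 members were called under every alternative run, but genes called over the whole table moved. For ECiKO they were 3 under DESeq2, 5 without the Plvap-led cluster and 6 to 36 with 1 library left out, against 23. For GlastiKO they were 2 under DESeq2, 7 without the cluster and 7 to 37 with 1 library left out, against 26. The replicate numbers were not taken as pairs, since correlations of same-numbered deviations were 0.125, 0.0571 and 0.0597 and not all above 0.1, although the number also separates endothelial-rich and glia-rich libraries. A replicate block gave 33 and 44 genes called.

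Uncalled members close to 0 turned sign, and the cause was not tested. For ECiKO, Cdh5 was 0.14 and 0.13, Esam 0.068 and 0.067 and Ocln 0.034 and 0.032 with 500 genes per cell and with the stricter gate, both of which left out ECiKO replicate 2, with its few endothelial-like cells. Jam2 was 0.060 with 500 genes, 0.0012 under DESeq2 and 0.0083 with Scrublet calls kept, and Cdh2 was -0.0093 with Scrublet calls kept and -0.028 without the Plvap-led cluster. With 1 library left out, the log2 changes for ECiKO ranged over -1.12 to 0.67 for Cdh2, -0.33 to 0.15 for Cdh5, -0.024 to 1.01 for Cgnl1, -0.50 to 0.06 for Esam, -0.28 to 0.48 for Jam2 and -0.28 to 0.039 for Ocln. For GlastiKO they ranged over -0.19 to 0.061 for Cdh5, -0.20 to 0.62 for Cgnl1, -0.21 to 0.045 for Cldn5 and -0.11 to 0.65 for Jam2.

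Between classes, members against glia kept their direction under the alternatives run. Between astroglial-like and oligodendrocyte-like cells DESeq2 gave 0.75 for Cdh5 and 1.53 for F11r, which had almost no UMIs there, and 0.0058 for the well counted Tjp1. Cgnl1 was -1.69 with cluster classes. In the comparison of library numbers, 0 members were called with 500 genes, under DESeq2, without the low-count filter and with any library left out. RLE scaling moved the median of all genes to -0.29 against -0.48 under TMM between endothelial-like and oligodendrocyte-like cells, and to 0.25 against 0.03 between the glial classes. DESeq2 called 2268 genes higher and 2399 lower in endothelial-like than in oligodendrocyte-like cells, against 1905 and 3422 by edgeR. Without GlastiKO replicate 2, 2817 genes were called between endothelial-like and astroglial-like cells, against 4705, and DESeq2 called 1536 against 2413 in pericyte-like cells. The zone comparison was not fitted, since too few cells met its rule. Depth limits the libraries numbered 2, where endothelial-like sums held 38226 to 214279 UMIs.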
